A study of Mus musculus with 5 samples.

Results

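The genes described here are 34 genes of glycolysis and of the transcriptional response to low oxygen, followed across the immune cells of mouse flank tumours. They were chosen by gene symbol, with earlier results of these data known. All 34 were found among the 32285 gene rows of the count tables. They fill 35 rows because Aldoa has a further identifier, which held 1 and 2 UMIs in Scramble libraries 1 and 2 and 0 in the others and is left out of every value below. By role they are 2 membrane transporters, 13 enzymes, 3 regulators of pathway flux, 3 genes of oxygen sensing, 3 genes of mitochondrial proteins and 10 further hypoxia-response genes.

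The libraries came from Lewis lung carcinoma (LLC), a mouse lung tumour line, grown in the flanks of mice. The tumour cells had received either a Scramble guide RNA (3 libraries) or a guide RNA against Jag2 (JAG2KO, 2 libraries), so the immune cells measured here were not themselves edited. Live CD45+ cells, the leukocytes, were sorted from tumours dissociated with Liberase and encapsulated for single-cell 3′ RNA sequencing. The strain, sex and age of the mice and the time of collection were not given in the sources used here, nor was it stated which tumours came from separate mice, so the p-values measure the spread between these libraries, which may be technical. The tissue was dissociated with enzymes, and no untreated tissue was measured.

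The 5 libraries held 10262 to 21854 barcodes, and 7541 to 17515 cells were kept. JAG2KO library 2 stood apart, with a median of 2452 UMIs (unique molecular identifiers, counted molecules) per kept cell against 7646 to 8611.5 in the other 4, and every pair of libraries shared 26 to 74 barcodes. Cells were put in classes by marker genes and are called by those markers. The summed macrophage markers, such as C1qa and Csf1r, lay at 16749 to 22857 CPM (a gene's UMIs relative to all UMIs of the class in a library, at a common total) in macrophages, and the neutrophil markers, such as S100a8 and Csf3r, at 83660 to 127930 CPM in neutrophils against 157 to 262 CPM in macrophages. Macrophages were the main class, with 6483, 7215 and 5265 cells in Scramble and 7006 and 14630 in JAG2KO. Jag2 itself was near 0 in the sorted cells, at 4.14, 3.11 and 4.54 CPM over the Scramble libraries and 3.48 and 2.16 over the JAG2KO ones in macrophages. The cells that carried both collagen and Rhox5 transcripts, the candidates for leftover tumour cells, held 0 or 1 Jag2 UMI per library, so these libraries hold no check of the edit.

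Glycolysis splits glucose to pyruvate in the cytosol, and lactate dehydrogenase turns pyruvate to lactate, which leaves the cell through a monocarboxylate transporter. When oxygen falls, the prolyl hydroxylases that mark the factor HIF-1α for destruction slow down, and the stabilised factor raises the transcription of glucose transporters, glycolytic enzymes, mitophagy receptors and its own hydroxylases. In macrophages the same genes are also raised by inflammatory and lactate signals, and Arg1, which encodes arginase 1, is among the genes linked to both.

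HIF dimers bind DNA at the core letters RCGTG, where R is A or G. The 250 bases before each start site in the RefSeq table (build GRCm38.p6) were searched for ACGTG and its reverse complement CACGT. The form GCGTG was not searched, so a window without a match may still hold that form of the core. A match to CACGTG, which is its own reverse complement, counts on both strands. A window was found for 32 of the 34 genes (Ero1l under its newer symbol Ero1a), and 20 of those 32 held the motif (62.5%), against 18.5% of the 27025 genes in the table. By windows the share was 23 of 46 (50%) against 16.6% of 32851. The genes of the table were not matched to the members by expression or base content. A match describes the letters in the window, not a bound site. The stretches of Bnip3 and Egln3 are shown because both are among the genes that differed most between macrophage classes. Pgk1 and Ldha are core enzymes of the pathway with several matches, and Pfkp is an enzyme with no match to ACGTG or CACGT in its window. The stretch of Pfkp does hold GCGTG, the form of the core that was not searched. Each stretch is written 5′ to 3′ on the strand of its gene, and capitals mark the matches.
Bnip3, chr7:138909507-138909756, minus strand: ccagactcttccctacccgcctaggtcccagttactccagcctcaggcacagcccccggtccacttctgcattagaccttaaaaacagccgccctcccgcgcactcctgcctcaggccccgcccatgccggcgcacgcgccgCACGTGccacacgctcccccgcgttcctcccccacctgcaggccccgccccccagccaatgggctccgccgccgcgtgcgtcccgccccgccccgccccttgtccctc
Egln3, chr12:54203875-54204124, minus strand: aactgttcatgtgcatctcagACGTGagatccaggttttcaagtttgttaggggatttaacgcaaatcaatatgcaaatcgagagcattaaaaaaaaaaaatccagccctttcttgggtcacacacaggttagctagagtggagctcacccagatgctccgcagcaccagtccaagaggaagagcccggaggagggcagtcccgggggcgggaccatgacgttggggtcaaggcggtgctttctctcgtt
Pgk1, chrX:106186850-106187099, plus strand: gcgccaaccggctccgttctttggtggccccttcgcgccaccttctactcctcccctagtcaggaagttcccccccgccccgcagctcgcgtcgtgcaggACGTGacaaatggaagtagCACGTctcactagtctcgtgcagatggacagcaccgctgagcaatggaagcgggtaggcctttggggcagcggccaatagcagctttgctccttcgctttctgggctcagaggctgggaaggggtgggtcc
Ldha, chr7:46845554-46845803, plus strand: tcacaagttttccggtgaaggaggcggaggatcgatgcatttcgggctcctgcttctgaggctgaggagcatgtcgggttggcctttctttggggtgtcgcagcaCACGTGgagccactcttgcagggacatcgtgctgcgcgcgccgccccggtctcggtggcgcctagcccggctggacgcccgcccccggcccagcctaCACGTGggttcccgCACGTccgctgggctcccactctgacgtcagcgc
Pfkp, chr13:6648778-6649021, minus strand: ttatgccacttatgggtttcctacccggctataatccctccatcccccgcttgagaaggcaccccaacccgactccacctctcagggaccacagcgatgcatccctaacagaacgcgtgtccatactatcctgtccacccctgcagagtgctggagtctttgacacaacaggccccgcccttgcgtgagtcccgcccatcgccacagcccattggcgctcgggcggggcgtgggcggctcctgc
The match of Bnip3 begins 108 bases before the start site, that of Egln3 229 bases before it, and those of Pgk1 150 and 131 bases before it. Ldha has 3 places, which begin 145, 48 and 34 bases before the start. The stretch of Pfkp has 244 bases because it ends before the first annotated exon base, and all the other stretches lie outside annotated exons.

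**Figure D1:**
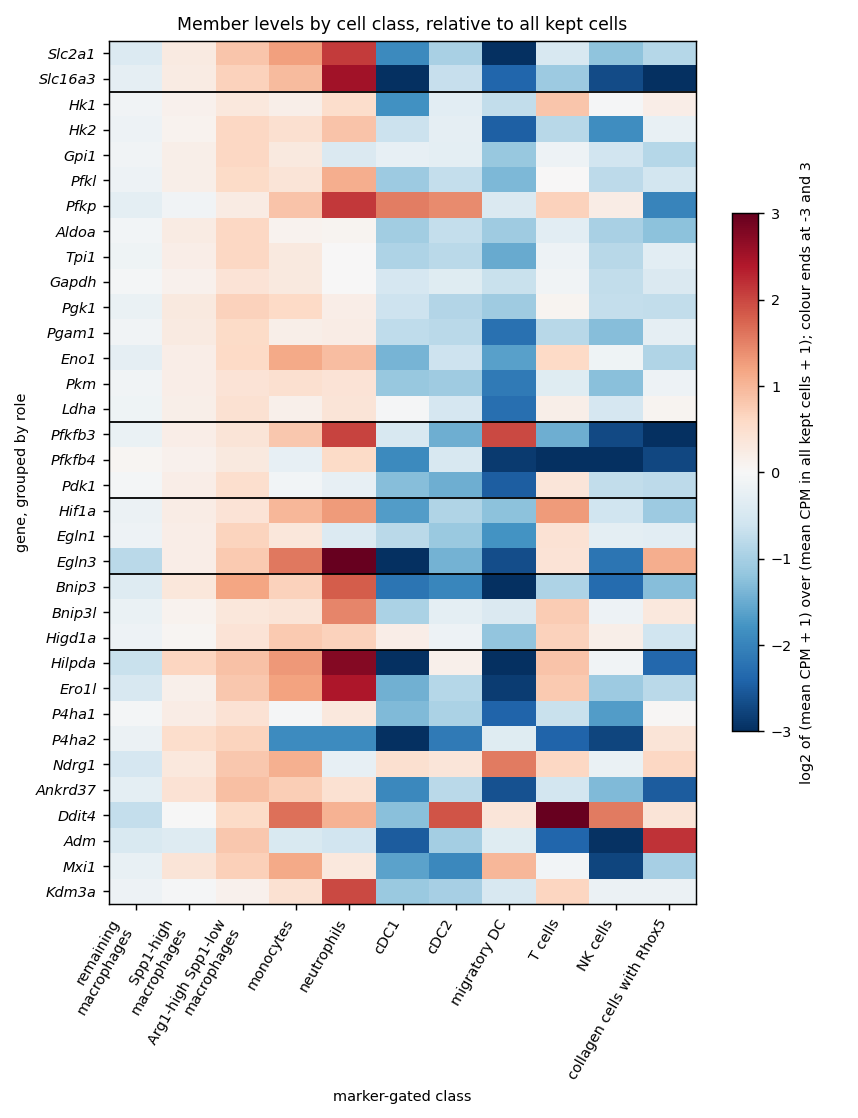
Level of the 34 genes (rows, grouped by role) in 11 marker-gated classes (columns), as the log2 ratio of the mean CPM over libraries plus 1 to that of all kept cells plus 1, with colours ending at -3 and 3. Neutrophils are darkest red for the transporters, Pfkp, Pfkfb3, Egln3, Hilpda and Ero1l, while cDC1 and migratory DC are blue for most genes.

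Across the classes the transporters had their highest levels in neutrophils. Slc2a1, which encodes the glucose transporter GLUT1, was at 480.2, 530.2 and 438 CPM over the Scramble libraries and 461 and 413 over the JAG2KO ones in neutrophils and at 294, 229.9 and 260.2 CPM (Scramble) and 252 and 243 (JAG2KO) in monocytes. In conventional dendritic cells marked by Xcr1 and Clec9a (cDC1) it was at 28.6, 42.1 and 18.6 CPM (Scramble) and 34.1 and 17.2 (JAG2KO). In migratory dendritic cells marked by Ccr7 and Fscn1 it was at 11.8, 25.7 and 4.61 CPM (Scramble) and 7.2 and 10.6 (JAG2KO). All 5 neutrophil libraries were above all 5 monocyte libraries, and those above cDC1, migratory dendritic cells and cDC2, which were at 39.9 to 76.00 CPM.

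Slc16a3 encodes the lactate exporter MCT4. It was at 1160.3, 1267 and 1679 CPM over the Scramble libraries and 1327 and 1174 over the JAG2KO ones in neutrophils, and monocytes came next with 393 to 555 CPM. Its mean was 106 ± 38.2 CPM (SD, n = 5) in T cells, 34.7 ± 3.89 CPM (SD, n = 4) in NK cells and 25.4 ± 16.7 CPM, 43.3 ± 23.2 CPM and 139.7 ± 23.1 CPM (SD, n = 5) in cDC1, migratory dendritic cells and cDC2.

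The neutrophil is a short-lived granulocyte that meets much of its energy need by glycolysis. Besides the transporters, its libraries were highest for Pfkp, an isoform of phosphofructokinase, which catalyses the first committed step of the pathway, at 521, 516 and 572 CPM over the Scramble libraries and 407 and 434 over the JAG2KO ones. The next classes for Pfkp were cDC1 at 245, 379 and 349 CPM (Scramble) and 386 and 268 (JAG2KO) and the Cd209a-marked cDC2 at 247, 229.8 and 364 CPM (Scramble) and 306 and 345 (JAG2KO), all above the macrophage range of 74.99 to 127 CPM. So Pfkp was high in dendritic cells in which Slc2a1 was low. Pfkfb3, which makes the activator of phosphofructokinase, was at 146 to 298 CPM in neutrophils and 148 to 339.9 CPM in migratory dendritic cells, and the ranges overlap, while macrophages were at 45.1 to 62.3 CPM.

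The T cells, gated on Cd3e and Trac, had the highest level of Ddit4, whose product REDD1 restrains the growth kinase mTORC1. Their libraries held 405, 375 and 364 CPM over the Scramble libraries and 325 and 191 over the JAG2KO ones, against 80.7 to 162 CPM in monocytes, 34.7 to 85.7 CPM in neutrophils and 16.3 to 29.7 CPM in macrophages. T cells were also high for Hif1a, the gene of the oxygen-regulated factor itself, at 359 to 597 CPM, which overlaps the 464 to 585 CPM of neutrophils and the 327 to 483 CPM of monocytes and lies above the 185 to 229 CPM of macrophages. Ndrg1, a stress-induced gene of cell differentiation, was highest in cells gated as mast cells or basophils, at 315 and 271 CPM in 2 Scramble libraries and 551 and 358 CPM in JAG2KO, in 21 to 39 cells per library. Migratory dendritic cells came next among the gated types at 84.7 to 211 CPM, and their lowest library fell within the monocyte range of 73.2 to 146 CPM. Adm, which encodes the vasodilator peptide adrenomedullin, was at 45.6 and 55.6 CPM in the collagen- and Rhox5-marked cells of the JAG2KO libraries, at 1.8 CPM in those of the only Scramble library with enough such cells, and at most 19.0 CPM in the Arg1-high macrophages described below. Macrophage markers were also counted in the other classes: they stood at 8.70% to 17.1% of their macrophage level in neutrophils, at 17.0% to 19.7% in monocytes and at 3.12% to 6.53% in T cells. P4ha2 was at or under that share in 3 of the 5 neutrophil libraries, so its level there is read as background.

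Macrophages of at least 2000 UMIs were divided by their own Spp1 and Arg1 counts. These were 6170 of 6483, 6645 of 7215 and 4988 of 5265 macrophages in Scramble and 6640 of 7006 in JAG2KO library 1. In the shallow JAG2KO library 2 they were 8081 of 14630, so the gates leave out many of its macrophages. Spp1-high macrophages held at least 50 Spp1 UMIs per 10000, Arg1-high macrophages held at least 20 Arg1 UMIs and fewer than 20 Spp1 UMIs per 10000, and the rest are called remaining macrophages. Spp1 encodes osteopontin, a secreted adhesion protein. Spp1-high cells numbered 1867, 1338 and 983 in Scramble and 168 and 147 in JAG2KO, Arg1-high cells 417, 562 and 635 against 642 and 1035, and remaining cells 3886, 4745 and 3370 against 5830 and 6899. Just under the thresholds lay 60 to 382 cells per library with 40 to 50 Spp1 UMIs per 10000 and 97 to 412 with 16 to 20 Arg1 UMIs per 10000. Just above them lay 40 to 343 and 100 to 270 cells. The Spp1 gate set no limit on Arg1, so Spp1-high cells may hold much Arg1 as well. Cells with 20 to under 50 Spp1 UMIs per 10000 were counted as remaining macrophages whatever their Arg1. The gates are ranges of a continuous level, not cell types.

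All 34 genes were higher in Arg1-high than in remaining macrophages, with a median log2 difference of 0.85, against a median of -0.01 over the 12588 genes tested. By edgeR's quasi-likelihood test with Benjamini-Hochberg adjustment and the library as block, 17.1% of all genes tested were called higher in that comparison at an adjusted p under 0.05. In Spp1-high against remaining macrophages 32 of the 34 were called higher, where 9.62% of all genes were (18.2% in either direction), and the median difference was 0.41. In the direct comparison, Spp1-high against Arg1-high, 26 of the 34 were called lower, where 4.59% of all genes were (7.39% in either direction), and all 34 differences were negative with a median of -0.43. These fits use TMM factors, which scale each library to the bulk of its genes. Scaled by library totals instead, an alternative chosen after seeing the data, 34, 31 and 28 of the 34 were called in the same directions, and the all-gene medians were -0.12, -0.09 and 0.03. That scaling changed the split of all genes called from 17.1% higher and 14.7% lower to 8.92% and 29.9% in the Arg1 gate, and from 9.62% and 8.56% to 4.87% and 17.5% in the Spp1 gate. The direct comparison rests more on single libraries: 12 of the 34 were called without Scramble library 2 and 16 without Scramble library 3.

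**Figure D2:**
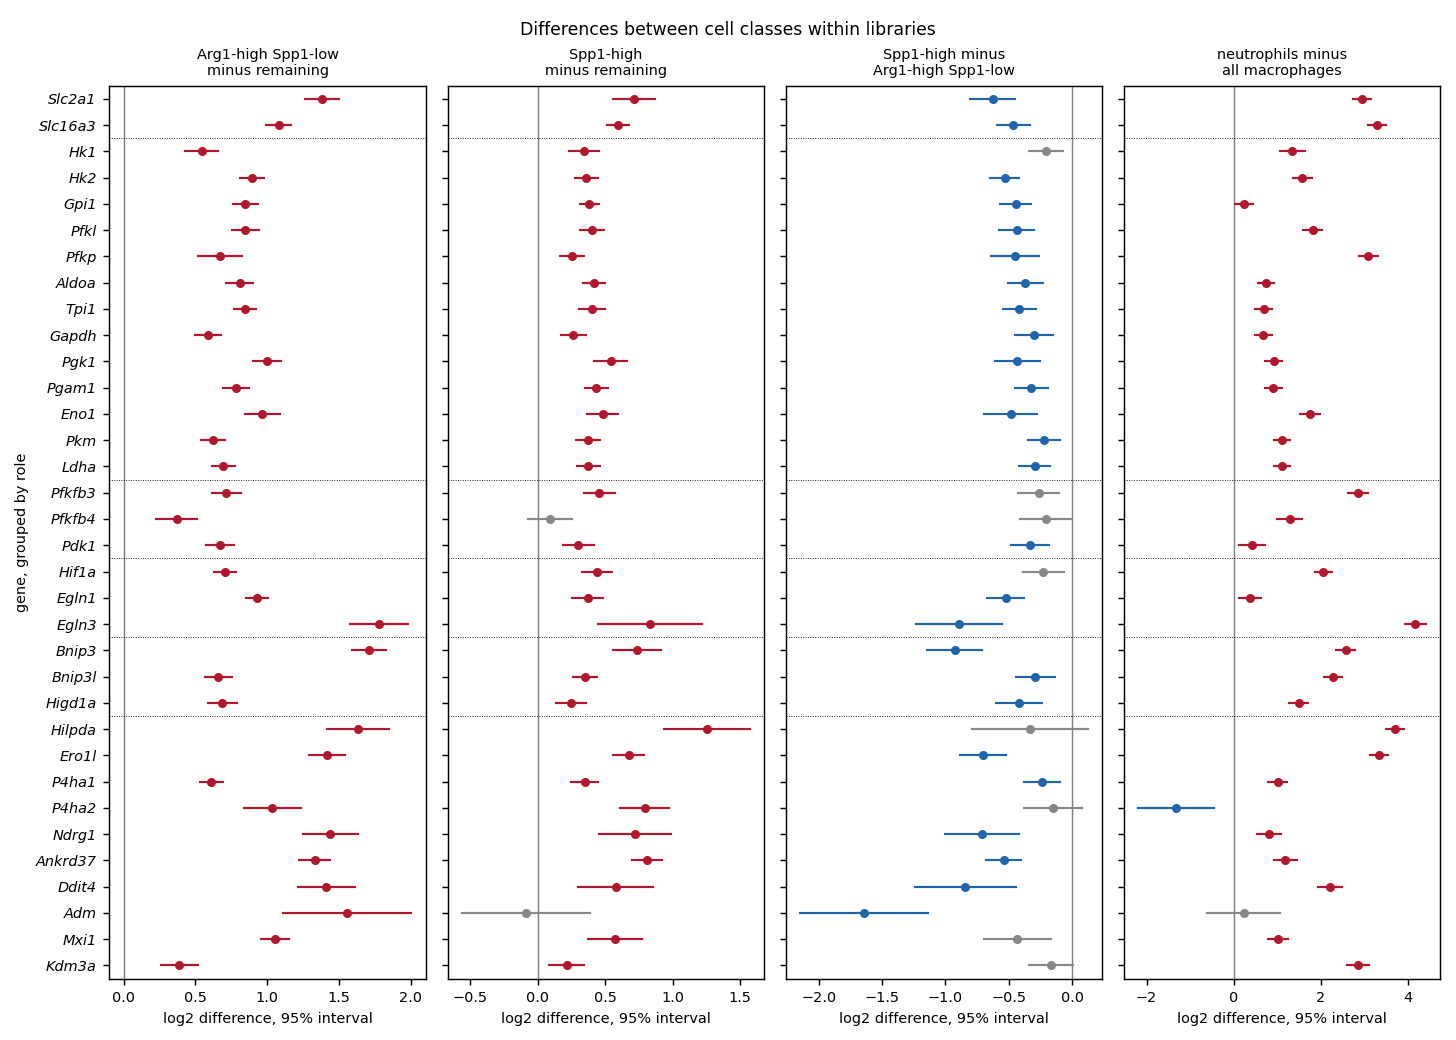
Log2 difference with its 95% interval for each gene (rows, grouped by role) between cell classes of the same libraries, 1 panel per comparison; red and blue points were called higher and lower by edgeR at an adjusted p under 0.05 and grey points were not called. In the first panel all 34 intervals lie above 0, in the panel of Spp1-high minus Arg1-high all 34 estimates lie below 0, and P4ha2 stands alone below 0 in the neutrophil panel. The horizontal scales differ between panels.

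Among the transporters, Slc2a1 was at 76.3, 89.4 and 92.9 CPM over the Scramble libraries and 73.05 and 70.03 over the JAG2KO ones in remaining macrophages, at 119, 143 and 117 CPM (Scramble) and 125 and 147 (JAG2KO) in Spp1-high macrophages and at 209, 212 and 197 CPM (Scramble) and 190.0 and 159.5 (JAG2KO) in Arg1-high macrophages. The 3 ranges did not overlap. The log2 difference to remaining macrophages was 1.38 ± 0.05 (SE) for the Arg1 gate (adjusted p = 5.22e-09, edgeR) and 0.72 ± 0.07 for the Spp1 gate (adjusted p = 3.25e-05, edgeR). The exporter Slc16a3 rose by 1.08 ± 0.04 and 0.60 ± 0.04, from 171 to 205 CPM to 328 to 411 and 231 to 303 CPM.

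All 13 enzymes rose in both gates, over a narrow band: 0.54 to 1.0 on the log2 scale in Arg1-high and 0.26 to 0.54 in Spp1-high macrophages. Phosphoglycerate kinase, encoded by Pgk1 and one of the steps that yields ATP, was at 388, 359 and 363 CPM over the Scramble libraries and 357 and 376 over the JAG2KO ones in remaining, 489, 492 and 486 CPM (Scramble) and 450.3 and 650.0 (JAG2KO) in Spp1-high and 687, 713 and 638 CPM (Scramble) and 720.2 and 650.2 (JAG2KO) in Arg1-high macrophages. It was the enzyme with the largest difference in each gate, 1.0 ± 0.04 and 0.54 ± 0.05. In JAG2KO library 2 the Spp1-high and Arg1-high values of Pgk1 were equal within 1 CPM, while in the other 4 libraries the Arg1-high value was higher.

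The pathway begins with the hexokinases. Hk2, the inducible isoform, rose by 0.90 ± 0.04 in Arg1-high macrophages, and Hk1, the widely expressed one, by 0.54 ± 0.05, the smallest difference of any enzyme there. Enolase 1 (Eno1) rose by 0.97 ± 0.06 and 0.48 ± 0.05. Its near-identical copy Eno1b is counted apart, at 315 to 474 CPM against 69.3 to 87.8 CPM for Eno1 in all macrophages, and the division of reads between both copies is uncertain, as it is for Gapdh and other enzymes with many processed copies in the genome. At the end of the pathway Pkm, pyruvate kinase, rose by 0.62 ± 0.04 and 0.38 ± 0.04 and Ldha, lactate dehydrogenase A, by 0.70 ± 0.04 and 0.38 ± 0.04. In the direct comparison 12 of the 13 enzymes were lower in Spp1-high macrophages, all but Hk1 (-0.21 ± 0.06, adjusted p = 0.0654, edgeR).

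Of the flux regulators, Pdk1, whose kinase product holds pyruvate back from the mitochondrion, rose by 0.67 ± 0.05 and 0.30 ± 0.05, and Pfkfb3 by 0.71 ± 0.05 and 0.46 ± 0.05. Pfkfb4, a relative of Pfkfb3, had the smallest difference of all 34 genes in the Arg1 gate, 0.37 ± 0.07, and was higher in 4 of the 5 libraries. In the Spp1 gate it differed by 0.09 ± 0.08 (adjusted p = 0.465, edgeR), with an interval of -0.07 to 0.26.

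Of the sensing genes, Hif1a, whose product is regulated mainly by degradation, rose by 0.70 ± 0.03 and 0.44 ± 0.05, and Egln1, the main prolyl hydroxylase (PHD2), by 0.93 ± 0.03 and 0.37 ± 0.05. Egln3, the strongly hypoxia-inducible hydroxylase PHD3, had the largest difference of all 34 genes in the Arg1 gate, 1.78 ± 0.09. Its level was 15.98, 20.6 and 22.3 CPM over the Scramble libraries and 10.01 and 10.3 over the JAG2KO ones in remaining, 27.6, 32.2 and 25.7 CPM (Scramble) and 27.3 and 49.7 (JAG2KO) in Spp1-high and 64.5, 57.4 and 54.7 CPM (Scramble) and 36.3 and 35.6 (JAG2KO) in Arg1-high macrophages. In the Spp1-high cells of JAG2KO library 2 it was higher than in the Arg1-high cells of that library, the reverse of the other 4 libraries.

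Bnip3 and Bnip3l encode related receptors that mark mitochondria for removal. Bnip3 was at 77.98, 83.7 and 87.8 CPM over the Scramble libraries and 73.1 and 70.8 over the JAG2KO ones in remaining, 115, 135 and 125 CPM (Scramble) and 101 and 179 (JAG2KO) in Spp1-high and 268, 255 and 223 CPM (Scramble) and 221 and 224 (JAG2KO) in Arg1-high macrophages, and in each library the order was the same. Its differences were 1.71 ± 0.05 and 0.74 ± 0.08, and Spp1-high macrophages were lower than Arg1-high ones by 0.93 ± 0.10 (adjusted p = 0.000183, edgeR). Bnip3l moved less, by 0.66 ± 0.04 and 0.35 ± 0.04, and Higd1a, a small protein of the inner mitochondrial membrane, by 0.69 ± 0.05 and 0.25 ± 0.05.

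The further hypoxia-response genes spanned the widest range. Hilpda, which encodes an inhibitor of fat breakdown at lipid droplets, had the largest difference in the Spp1 gate, 1.25 ± 0.15, and one of 1.63 ± 0.10 in the Arg1 gate, and the difference between both gates did not pass the test (-0.33 ± 0.21, interval -0.79 to 0.12, adjusted p = 0.43, edgeR). Adm, by contrast, was low in Spp1-high macrophages. It was at 19.02, 12.8 and 11.2 CPM over the Scramble libraries and 10.6 and 9.91 over the JAG2KO ones in Arg1-high macrophages, at 3.74, 6.03 and 3.65 CPM (Scramble) and 1.95 and 9.72 (JAG2KO) in Spp1-high and at 3.7, 5.48 and 7.54 CPM (Scramble) and 2.8 and 4.04 (JAG2KO) in remaining macrophages. So Adm rose in the Arg1 gate (1.56 ± 0.21), was not called in the Spp1 gate (-0.08 ± 0.22, adjusted p = 0.864, edgeR) and differed most between both gates (-1.64 ± 0.23, adjusted p = 0.00118, edgeR).

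Ddit4 rose by 1.41 ± 0.09 and 0.58 ± 0.13, Ndrg1 by 1.44 ± 0.09 and 0.72 ± 0.12, and Ero1l, an oxidase that helps form disulphide bonds in the endoplasmic reticulum, by 1.42 ± 0.06 and 0.67 ± 0.05. Of the collagen prolyl hydroxylase subunits, P4ha2 rose by 1.04 ± 0.09 and 0.79 ± 0.08, to 10.4 to 17.3 CPM in both gates, and P4ha1 by 0.61 ± 0.04 and 0.35 ± 0.04. The remaining members were Ankrd37 (1.33 and 0.81), Mxi1, a repressor of the Myc network (1.06 and 0.58), and the histone demethylase gene Kdm3a (0.39 and 0.22).

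**Figure D3:**
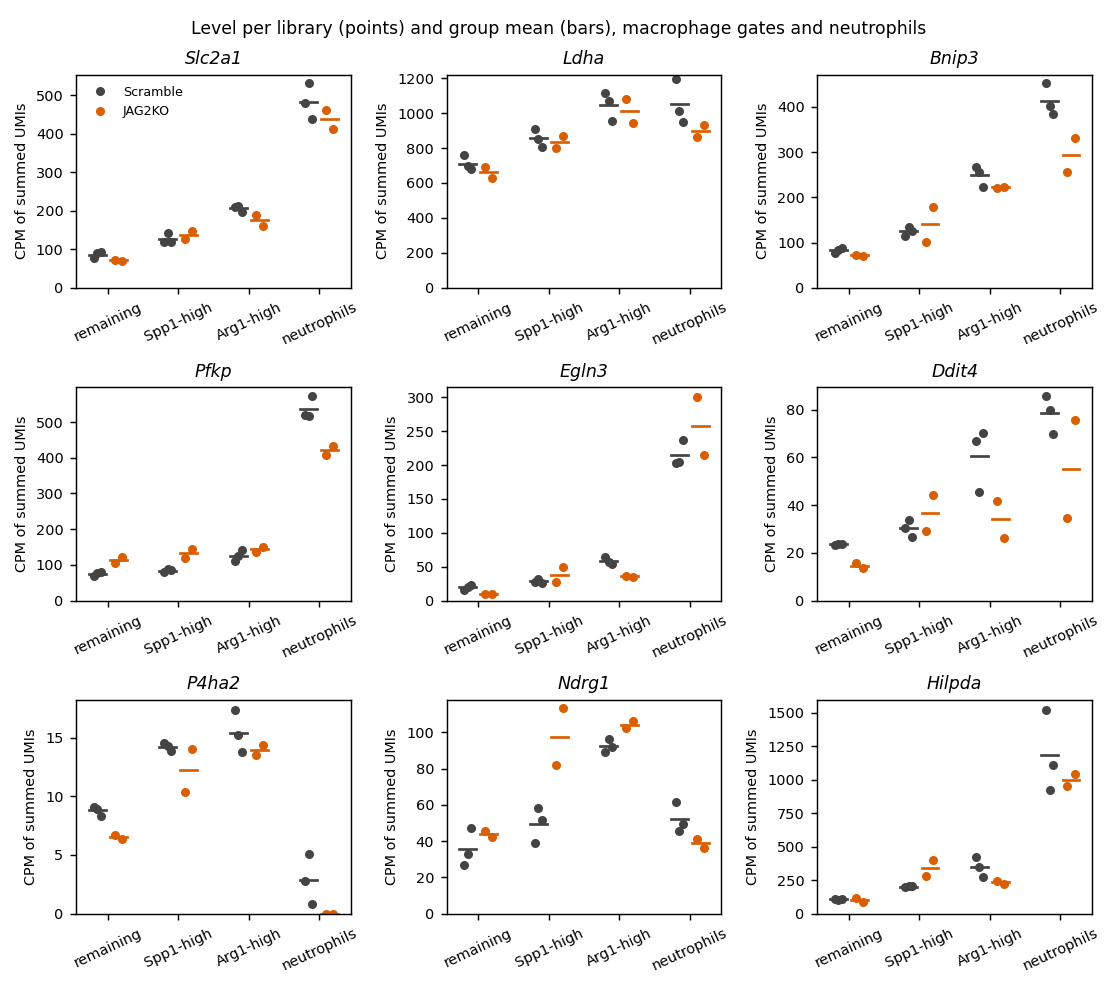
CPM of summed UMIs of 9 of the genes in each library (points) with the group mean (bars), for remaining, Spp1-high and Arg1-high Spp1-low macrophages and neutrophils, Scramble in grey and JAG2KO in orange; each panel has its own axis from 0. Slc2a1, Ldha and Bnip3 rise from remaining to Spp1-high to Arg1-high macrophages in both groups, while Ndrg1 and Hilpda in Spp1-high macrophages are higher in both JAG2KO libraries than in all 3 Scramble libraries.

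Of 73 other genes of the pathway, 60 could be tested in the Arg1 gate apart from Arg1 and Spp1. There 34 rose and 2 fell (Stc1 and Tfrc, named after their values were seen), where 17.1% of all genes were called higher and 14.7% lower. The 6 with the smallest adjusted p were Gys1 (1.18), which makes glycogen, Pgm1 (1.08), which links glycogen to glycolysis, Vegfa (1.39), an angiogenic growth factor, Ak4 (1.70), Fam162a (0.91) and Mif (0.73). In the Spp1 gate 24 of 61 rose, Vegfa by 0.93 ± 0.12 among them, and 2 fell (Eno3 and Tfrc, likewise). Of all genes 9.62% were called higher and 8.56% lower there. Of 20 genes of oxidative metabolism 3 fell in the Arg1 gate and 5 in the Spp1 gate, where 14.7% and 8.56% of all genes were called lower, Fh1, the fumarate hydratase of the citric acid cycle, among them (-0.36 and -0.47). Scaled by library totals the falls came to 13 and 12 of 20, against 29.9% and 17.5% of all genes, so this count depends on the scaling.

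Monocyte markers moved with the Arg1 gate. The summed level of the 8 markers, among them Ly6c2 and Ccr2, was 2674, 2589 and 2747 CPM (Scramble) and 2009 and 1850.4 CPM (JAG2KO) in Arg1-high macrophages, 1479 to 2486 CPM in Spp1-high and 1052 to 1459 CPM in remaining macrophages. The macrophage markers were lower in Arg1-high (16825 to 18886 CPM) than in remaining macrophages (17128 to 23397 CPM) in every library. Monocytes themselves had higher means than remaining macrophages for most members, such as Slc2a1 at 256 ± 24.1 CPM (SD, n = 5). Of 10 genes of stress and dissociation, 4 rose and 2 fell in each gate. Of all genes, 17.1% were called higher and 14.7% lower in the Arg1 gate, and 9.62% and 8.56% in the Spp1 gate. Scaled by library totals, 4 of the 10 rose and 5 fell in the Arg1 gate, against 8.92% and 29.9% of all genes. In the Spp1 gate 4 rose and 2 fell, against 4.87% and 17.5%. The part of monocyte content and of stress in the differences was not tested.

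To ask how the genes vary together without the Spp1 and Arg1 gates, macrophages of at least 2000 UMIs were thinned to 2000 UMIs and ordered within each library by the summed UMIs of 10 members (Bnip3, Ndrg1, Egln3, Slc2a1, Ankrd37, Hilpda, Ero1l, P4ha1, P4ha2 and Adm). The 10% with the highest sums, 498 to 808 cells per library, were compared with the other macrophages. The lowest sum inside that class was 3 or 4 UMIs, the median 4 to 6 and the median of the other cells 1 UMI, so the class is the upper end of a range. Those 10 genes chose the cells and are not counted.

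Of the 24 other members, 23 were higher in the hypoxia-rich macrophages, where 20% of all genes were called higher, with a median log2 difference of 1.04. All 13 enzymes rose, from 0.71 ± 0.05 for Gapdh to 1.35 ± 0.06 for Pgk1. Pgk1 was at 931, 950.3 and 949 CPM over the Scramble libraries and 781 and 764 over the JAG2KO ones in the hypoxia-rich cells and at 390.2, 365 and 369 CPM (Scramble) and 354 and 380.3 (JAG2KO) in the others. Ddit4 had the largest difference, 2.33 ± 0.08, from 12.6 to 21.4 CPM to 44.9 to 119 CPM, followed by Mxi1 at 1.70 ± 0.07 and Egln1 at 1.43 ± 0.07.

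Pfkfb4 again did not follow. It was at 30.1, 27.9 and 26.2 CPM over the Scramble libraries and 34.2 and 36.8 over the JAG2KO ones in hypoxia-rich macrophages and at 33.3, 36.1 and 35.1 CPM (Scramble) and 33.98 and 35.6 (JAG2KO) in the others, so the 3 Scramble libraries were lower and the 2 JAG2KO libraries higher, and the difference was -0.04 ± 0.07 (adjusted p = 0.666, edgeR). Arg1-high cells made up 19.1%, 24.1% and 28.3% of the hypoxia-rich macrophages in Scramble and 26.4% and 35.9% in JAG2KO, against 5.38% to 11% of the other macrophages. Spp1-high cells made up 41.2%, 28.8% and 24.3% of them in Scramble and 5.87% and 4.08% in JAG2KO, against 19.2% to 29.0% and 1.57% to 2.16% of the other macrophages. Among the other pathway genes 38 of 63 rose and 6 fell, where 20% of all genes were called higher and 17.5% lower. Vegfa (1.81), Ak4 (2.39) and Gys1 (1.77) were among those that rose. Monocyte markers were at 2194 to 3760.1 CPM in these cells against 1093 to 1462 CPM in the others. Neutrophil markers in Scramble were at 303, 369 and 260 CPM against 153, 184 and 171 CPM. Macrophage markers in Scramble were at 15636, 15555 and 13735 CPM against 22683, 23616 and 20563 CPM. In JAG2KO library 1 the neutrophil markers were at 159 against 155.5 CPM and the macrophage markers at 16028 against 19592 CPM. The neutrophil and macrophage markers of JAG2KO library 2 in these cells are not given here. Of 10 genes of stress and dissociation, 6 rose and 1 fell, against the same shares of all genes, 20% and 17.5%. The part of monocyte or neutrophil content and of stress was not tested.

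Neutrophils had the highest levels of many members, and the difference to macrophages depends on the scaling more than the others. With TMM factors edgeR called 32 of the 34 members higher, where 24.9% of all genes were called higher and 41.1% lower and the median of all genes was -0.54. With library totals 25 were called higher and 3 lower, and the all-gene median was -1.24. By plain CPM 20 of the 34 members were higher in neutrophils in all 5 libraries, 1 (P4ha2) was lower in all 5 and 13 were mixed. Values below are given as CPM with the TMM-scaled difference after them.

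Egln3 was at 203, 204 and 237 CPM over the Scramble libraries and 300.1 and 215 over the JAG2KO ones in neutrophils against 12.7 to 26.9 CPM in macrophages (4.17 ± 0.12), Hilpda at 1523, 925 and 1109 CPM (Scramble) and 957 and 1041 (JAG2KO) against 110.1 to 158 CPM (3.70 ± 0.11). Ero1l was at 613, 589 and 659 CPM (Scramble) and 486 and 476 (JAG2KO) against 77.7 to 102 CPM (3.34 ± 0.11). Slc16a3 differed by 3.29 ± 0.10, Pfkp by 3.09 ± 0.11, Slc2a1 by 2.95 ± 0.11, Pfkfb3 by 2.86 ± 0.12, Kdm3a by 2.85 ± 0.13, Bnip3 by 2.57 ± 0.11, Bnip3l by 2.28 ± 0.11, Ddit4 by 2.21 ± 0.14 and Hif1a by 2.06 ± 0.10. These 12 were higher by CPM in every library.

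The shared enzymes of the pathway differed much less. Ldha was at 1193, 1013 and 947 CPM over the Scramble libraries and 865 and 934 over the JAG2KO ones in neutrophils and 825, 758 and 734 CPM (Scramble) and 726 and 674 (JAG2KO) in macrophages, higher in all 5 libraries (1.11 ± 0.10). Gapdh, Tpi1, Gpi1 and Pdk1, like Egln1, were called higher with TMM factors and had the opposite sign with library totals, at -0.02, -0.01, -0.45, -0.28 and -0.32, so no direction is given for them. P4ha2 was at 2.76, 5.05 and 0.81 CPM over the Scramble libraries and 0 and 0 over the JAG2KO ones in neutrophils. Its difference of -1.32 ± 0.44 was negative under both scalings, and Adm was not called (0.23 ± 0.42, adjusted p = 0.64, edgeR).

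Of the other pathway genes 30 of 61 were higher and 12 lower in neutrophils with TMM factors, where 24.9% of all genes were called higher and 41.1% lower. Slc2a3, the gene of the glucose transporter GLUT3, was at 519.8, 659 and 754 CPM over the Scramble libraries and 297 and 619 over the JAG2KO ones against 2.61 to 3.41 CPM in macrophages, a log2 difference of 8.20 ± 0.14. Slc2a1 and Slc2a3 thus were both high in neutrophils, while macrophages held Slc2a1 and little Slc2a3. Of the oxidative genes 17 of 20 were lower, and 20 of 20 with library totals, where 41.1% and 62.9% of all genes were.

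The study set JAG2KO against Scramble. Over all macrophages 3 of the 34 members fell in JAG2KO, 27 differences were negative and 16 did not overlap between groups. Over all 14345 genes tested 49.2% of differences were negative and 34.6% did not overlap, and 4.04% were called, 2.15% lower and 1.88% higher, by edgeR. Egln3 was at 22.7, 26.1 and 26.9 CPM over the Scramble libraries and 12.7 and 14.5 over the JAG2KO ones, a log2 difference of -0.90 ± 0.12 (adjusted p = 0.0179, edgeR). Ddit4 was at 28.4, 27.6 and 29.7 CPM over the Scramble libraries and 18.4 and 16.3 over the JAG2KO ones, a difference of -0.74 ± 0.08 (adjusted p = 0.0135, edgeR). P4ha2 was at 11.2, 10.5 and 10.1 CPM over the Scramble libraries and 7.37 and 7.75 over the JAG2KO ones, a difference of -0.50 ± 0.10 (adjusted p = 0.0445, edgeR). For each of the 3 genes both JAG2KO libraries were below all Scramble libraries. Without Scramble library 2 none of the 3 was called (adjusted p = 0.0787, 0.0589 and 0.157, edgeR), and P4ha2 was lost without any one of the 5 libraries. The difference of Egln3 lay between -1.04 and -0.78 with any one library left out. The make-up of the macrophages differed as well, and its part was not tested beyond the values within gates below. Spp1-high cells were 23.4% ± 5.97 (SD, n = 3) of the divided macrophages of Scramble and 2.17% ± 0.503 (SD, n = 2) of those of JAG2KO (two-sided exact permutation p = 0.1, the smallest that 10 splits allow). Arg1-high cells were 9.32% ± 3.08 (SD, n = 3) and 11.2% ± 2.22 (SD, n = 2; two-sided exact permutation p = 0.4).

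The transporters and enzymes showed no called difference over all macrophages. Slc2a1 was at 97.7, 111 and 109.9 CPM over the Scramble libraries and 85.1 and 82.98 over the JAG2KO ones, so the groups did not overlap, and the difference was -0.35 ± 0.09 (adjusted p = 0.081, edgeR). Pfkp went the other way, at 74.99, 84.4 and 89.5 CPM over the Scramble libraries and 108 and 127 over the JAG2KO ones, a difference of 0.49 ± 0.12 (adjusted p = 0.0768, edgeR). Eno1 differed by -0.31 ± 0.08, Pkm by -0.29 ± 0.10, Ero1l by -0.32 ± 0.09 and Hilpda by -0.33 ± 0.09. These 6 genes passed the threshold by DESeq2, which called 9 members in all. The share of all genes called by DESeq2 is not given here, so the 9 have no background to be read against. Of the 66 other pathway genes tested 3 rose and 3 fell, Hmox1, which encodes the heme-degrading enzyme heme oxygenase 1, among the latter (-1.17 ± 0.16).

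**Figure D4:**
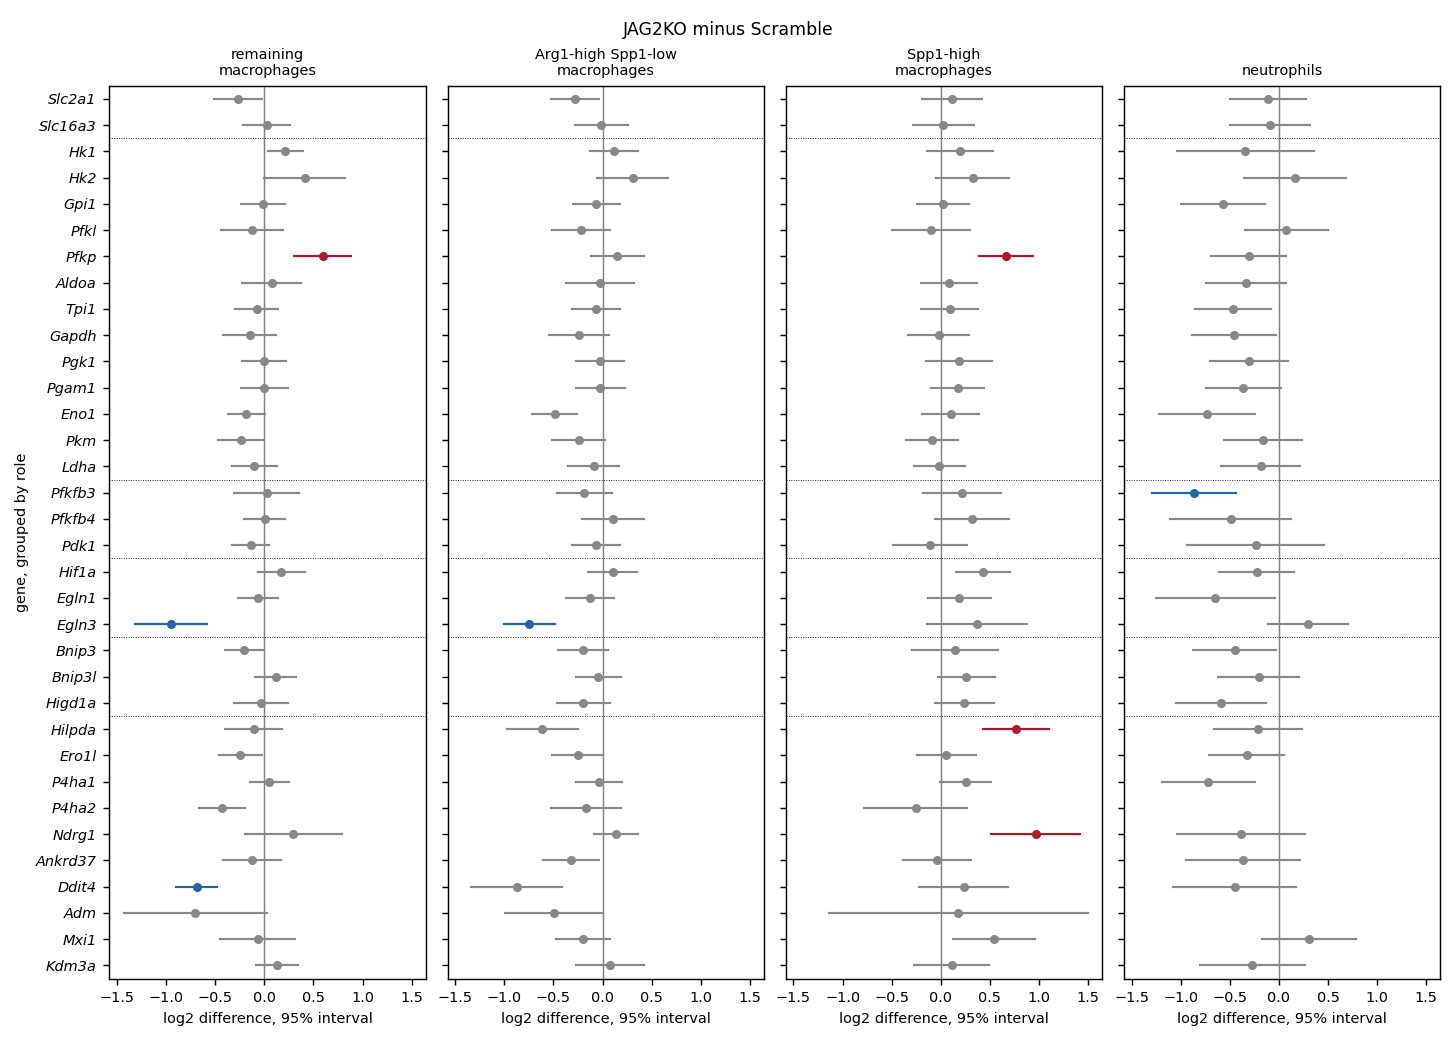
Log2 difference of JAG2KO minus Scramble with its 95% interval for each gene (rows, grouped by role) in remaining, Arg1-high Spp1-low and Spp1-high macrophages and neutrophils; blue and red points were called lower and higher by edgeR at an adjusted p under 0.05 and grey points were not called. Egln3 lies below 0 in the first 2 panels and Pfkp above 0 in remaining and Spp1-high macrophages; P4ha2 and Adm have no point in neutrophils because their counts were too low to test.

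Within remaining macrophages 2 members fell and 1 rose, where 4.78% of all genes were called, 2.64% lower and 2.14% higher. Egln3 was at 15.98, 20.6 and 22.3 CPM over the Scramble libraries and 10.01 and 10.3 over the JAG2KO ones (-0.95 ± 0.16, adjusted p = 0.023, edgeR), and Ddit4 at 23.2, 23.6 and 23.8 CPM (Scramble) and 15.6 and 13.5 (JAG2KO) (-0.69 ± 0.09, adjusted p = 0.013, edgeR). Pfkp rose from 67.99, 77.8 and 81.2 CPM in Scramble to 104 and 123 in JAG2KO (0.59 ± 0.12, adjusted p = 0.0404, edgeR). The groups did not overlap for any of the 3, nor for 34.7% of all genes tested there. All 3 calls were lost without Scramble library 2, and Egln3 and Pfkp also without Scramble library 3, Pfkp without Scramble library 1 or JAG2KO library 2 as well. Pfkp was also lost with at most 5% mitochondrial UMIs (adjusted p = 0.0585, edgeR) and with the gate thresholds halved (adjusted p = 0.0502, edgeR).

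Within Arg1-high macrophages 28% of all genes tested did not overlap between groups, 1.23% were called and 0.768% were called lower. Of the members Egln3 alone was called. It fell from 64.5, 57.4 and 54.7 CPM in Scramble to 36.3 and 35.6 in JAG2KO, a difference of -0.75 ± 0.12 (adjusted p = 0.0205, edgeR). The groups did not overlap, and the call was lost without any one library other than Scramble library 3 at differences of -0.76 to -0.67. In these cells neutrophil markers were lower in JAG2KO, at 85.7 and 111 CPM against 219, 230.3 and 176 CPM, and so were the monocyte markers given above, without overlap, and their part in these differences was not tested. Ddit4 had a larger estimate, -0.87 ± 0.21, from 66.7, 45.3 and 70.1 CPM in Scramble to 41.8 and 26.3 in JAG2KO, and did not pass (adjusted p = 0.0835, edgeR).

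Within Spp1-high macrophages 3 members rose, where 2.53% of all genes were called, 1.67% higher and 0.861% lower. Hilpda was at 195, 203 and 205 CPM over the Scramble libraries and 277 and 401 over the JAG2KO ones (0.76 ± 0.15, adjusted p = 0.025, edgeR). Ndrg1 was at 38.8, 58.2 and 51.7 CPM (Scramble) and 81.9 and 113 (JAG2KO) (0.97 ± 0.21, adjusted p = 0.0342, edgeR), and Pfkp at 80.5, 87.2 and 84.7 CPM (Scramble) and 120.2 and 146 (JAG2KO) (0.66 ± 0.13, adjusted p = 0.0202, edgeR). For all 3 the groups did not overlap, as was so for 40.3% of all genes tested there. JAG2KO library 2, the shallow one, held the highest value of each. Without that library the differences were 0.45, 0.72 and 0.51, and none was called. Hilpda and Pfkp were also not called without Scramble library 2, nor Ndrg1 without JAG2KO library 1. The JAG2KO libraries hold 168 and 147 of these cells, and monocyte markers were higher in them, at 2486 and 2381 CPM against 1479 to 1725 CPM in Scramble, so that monocyte content moves with the group, and its part was not tested. Neutrophil markers in the Spp1-high cells of JAG2KO library 2 were at 417 CPM, against 121 to 177 CPM in the other 4 libraries, and their part was not tested either. Of 60 other pathway genes 5 rose, among them Vegfa, from 228, 248 and 262 CPM in Scramble to 380.1 and 465 in JAG2KO (0.80 ± 0.13).

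In neutrophils 28 of the 32 members tested were lower in JAG2KO and 20 did not overlap between groups, with a median of -0.33. Over all genes tested there 50.9% of differences were negative and 29.8% did not overlap. Pfkfb3 alone was called by edgeR, where 0.639% of all genes were. It was at 298, 288 and 284 CPM over the Scramble libraries and 164 and 146 over the JAG2KO ones, a difference of -0.87 ± 0.21 (adjusted p = 0.0458, edgeR), and both JAG2KO libraries were below all Scramble libraries. The call was lost without any one library, at differences of -0.92 to -0.81, and by DESeq2. Of the enzymes Tpi1 went from 629, 603 and 604 CPM in Scramble to 423 and 437 in JAG2KO and Eno1 from 202, 195 and 197 CPM to 88.4 and 143 CPM, with adjusted p of 0.355 and 0.227 by edgeR. Egln3 was lower in JAG2KO over all macrophages and in remaining and Arg1-high ones, but was not called in Spp1-high ones, where the groups overlapped. In neutrophils Egln3 was at 203, 204 and 237 CPM (Scramble) and 300.1 and 215 (JAG2KO), a difference of 0.29 ± 0.20 with an interval of -0.12 to 0.70. Monocyte markers in the gated neutrophils were at 5347, 4572 and 5181 CPM in Scramble and higher, at 7442 and 6666 CPM, in JAG2KO, and their part was not tested. The neutrophil libraries held 653, 745 and 723 cells in Scramble and 191 and 244 in JAG2KO.

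In the other classes edgeR called 0 members between groups, as did DESeq2. In monocytes 32 were tested, and 4 had an unadjusted p under 0.05, as had 8.1% of all genes. There 25 of the 32 were lower, against 50% of all genes, and 0.425% of all genes were called. Ddit4 was at 162, 91.3 and 113 CPM over the Scramble libraries and 80.7 and 81.1 over the JAG2KO ones in monocytes (-0.59 ± 0.23, adjusted p = 0.494, edgeR). The groups did not overlap for Ddit4, nor for 24.8% of all genes tested in monocytes. In T cells 30 were tested, and 5 had an unadjusted p under 0.05, as had 7.21% of all genes. There 26 of the 30 were lower, against 49.3% of all genes, and 0.52% of all genes were called. Ddit4 there was at 405, 375 and 364 CPM over the Scramble libraries and 325 and 191 over the JAG2KO ones (-0.50 ± 0.22, adjusted p = 0.652, edgeR), and Ndrg1 had the smallest adjusted p (-1.19 ± 0.32, adjusted p = 0.175, edgeR).

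The counts at an unadjusted p under 0.05 were 0 of 25 in cDC1, 3 of 28 in cDC2, 0 of 16 in migratory dendritic cells and 1 of 24 in NK cells. The shares of all genes at that unadjusted threshold were 7%, 9.82%, 4.83% and 2.99%, so the 3 in cDC2 lie near the background. After adjustment 0.145%, 1.34%, 0.254% and 0.104% of all genes were called, in cDC1 0.0724% in each direction. These classes hold 17 to 120 cells per library, NK cells rest on 4 libraries because 1 Scramble library had fewer than 20, and the intervals there are wide. That of Ddit4 in cDC2 ran from -1.35 to -0.15 (adjusted p = 0.28, edgeR). The cells with collagen and Rhox5 transcripts could not be tested between groups, since 2 Scramble libraries held fewer than 20 of them.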

How the data were processed

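Single-cell RNA was counted in 3 Scramble and 2 JAG2KO libraries. The authors deposited raw UMI counts per gene and barcode, made with cellranger 6.0.0 per the file headers, and the submitters' processing notes also name Seurat, GRCm38 and mm10, with no role. Barcodes of at least 500 UMIs and 250 genes with at most 10% mitochondrial UMIs were kept. The 8% with the highest Scrublet doublet scores per library were then removed (scanpy 1.11.5), together with all cells tied at that cut-off. The cells removed numbered 788, 869 and 680 in Scramble and 844 and 1823 in JAG2KO, so the share was above 8%. Cells with at least 3 markers of a class and a score margin of 0.15 were gated. Counts were summed per library and class of at least 20 cells and tested in edgeR 4.0.16 (TMM, filterByExpr, quasi-likelihood, Benjamini-Hochberg over all genes, threshold 0.05), with the library as block between classes. DESeq2 1.42.0, other filters, gates and scalings, and leaving out each library were tried as alternatives. On simulated data for the comparison of genotypes in all macrophages (14345 genes), 67 of 100 genes changed 2-fold and 31 of 100 changed 1.5-fold were recovered, with 9 false calls. In neutrophils (6573 genes) 32 and 6 of 100 were recovered.

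The members and lists were chosen with earlier results of these data known. All members may be named, with up to 6 other pathway genes and 3 oxidative genes per comparison by smallest adjusted p. CPM refer to all UMIs of the class in a library. Classes other than macrophages and neutrophils were not simulated, and every comparison of genotypes has at most 3 and 2 libraries. Of the genes whose gate difference differed between genotypes, 1 is not reported here.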

Additional observations from a re-analysis of the deposited data

Results flagged for a closer look

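The difference between a macrophage gate and the remaining macrophages was compared between genotypes by an interaction of gate and genotype (edgeR, Benjamini-Hochberg over all genes). This test was chosen after seeing the data. In the Spp1 gate 2 of the 34 members were called, where 0.697% of all genes were, and 29 of the 34 interactions were positive. In the Arg1 gate 1 of 34 was called, where 0.248% of all genes were, and 8 were positive. The share of positive interactions over all genes was not counted, so the 29 and the 8 have no background to be read against. Both sets of interactions share the remaining macrophages.

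Egln3 was higher in Spp1-high than in remaining macrophages by 0.64 on the log2 scale in Scramble and by 1.92 in JAG2KO. The difference of 1.28 ± 0.27 had an adjusted p of 0.0435 (edgeR), and the call was lost without JAG2KO library 1 or JAG2KO library 2, at 0.90 to 1.68 over all libraries left out in turn. Mxi1 was higher by 0.42 in Scramble and 1.05 in JAG2KO, a difference of 0.63 ± 0.10 (adjusted p = 0.00727, edgeR) that was lost without JAG2KO library 1. Pfkp in the Arg1 gate went the other way, from 0.86 in Scramble to 0.42 in JAG2KO, a difference of -0.44 ± 0.07 (adjusted p = 0.0263, edgeR), lost without Scramble library 1, Scramble library 2 or JAG2KO library 2.

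Of the other pathway genes in the Spp1 gate, Vegfa differed by 0.79 (adjusted p = 0.000265, edgeR) and Hmox1 by 1.2 (adjusted p = 0.000544, edgeR), and both stayed called with any one library left out. Ier3 differed by 0.47 and Il1rn by 0.42, both lost without JAG2KO library 2. Plin2 differed by 0.37 and was lost without Scramble library 2 or JAG2KO library 2. In the Arg1 gate Bhlhe40 differed by -0.64 and was lost without Scramble library 1, and Mt1 by -0.41 and was lost without Scramble library 1, Scramble library 2 or JAG2KO library 1. The Spp1-high cells of the JAG2KO libraries numbered 168 and 147, with monocyte markers at 2486 and 2381 CPM against 1479 to 1725 CPM in Scramble, and their part in these differences was not tested.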

How the results depend on the processing

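The calls in Arg1-high against remaining macrophages (34 in every alternative run), Spp1-high against remaining (22 with no library block, 24 with sums thinned, otherwise 30 to 32) and hypoxia-rich macrophages (23) stayed within 1.5 times, as did those in neutrophils against macrophages (28 to 33). With library totals Pdk1 (-0.28), Tpi1 (-0.00501), Gapdh (-0.0164), Gpi1 (-0.45) and Egln1 (-0.32) changed sign there. Spp1-high against Arg1-high macrophages gave 15 calls with thresholds halved, 8 with no library block, 16 with sums thinned, and 12 to 31 with a library left out. Between genotypes, the 3 calls in all macrophages became 9 by DESeq2 and 5 with no filter on low counts, while P4ha2 was lost there with at most 5% mitochondrial UMIs (adjusted p = 0.0821, edgeR) and stricter gates (0.0508). The 3 in Spp1-high macrophages became 5 with no filter and 1 with at most 5% mitochondrial UMIs, with doublets kept or with thresholds halved (Ndrg1 was also lost with stricter gates, 0.0587, and with thresholds doubled, 0.0977), and the 1 in Arg1-high macrophages 4 by DESeq2 or with no filter, 2 with doublets kept or sums thinned and 0 with thresholds doubled. Neutrophils had 0 by DESeq2, with thinned sums, stricter gates or doublets kept, with a limit of 5% mitochondrial UMIs, and with a minimum of 1000 UMIs and 500 genes, and cDC2 and T cells had 1 each with no filter. With a library left out the counts were 0 to 3 in all macrophages, 0 to 5 in Spp1-high, 0 to 3 in Arg1-high and 0 to 3 in remaining macrophages and 0 to 1 in neutrophils, cDC2 and T cells. Where a JAG2KO library is left out, the lone sample is assumed to vary like the others. The number of all genes called moved over the alternatives as well. Between genotypes it ran from 49 to 1355 in all macrophages (579 in the main fit) and from 62 to 949 in Spp1-high ones (300). It ran from 18 to 596 in Arg1-high macrophages (136), from 98 to 1584 in remaining ones (668) and from 12 to 100 in neutrophils (42). For Spp1-high against Arg1-high macrophages it ran from 104 to 1317 (805). No share of all genes stands beside the member counts of each setting. The cause of these changes was not tested. The replicate numbers are shared by 2 pairs of libraries only, and the labels do not call them pairs, so they are not taken as pairs. Their deviations from the group means had correlations of 0.169 and 0.162, against -0.169 and -0.162 for the crossed numbers. With 2 JAG2KO libraries these deviations are mirror images, so the correlations cannot decide whether equal numbers are pairs. A replicate block gave 5 calls in all macrophages, 5 in Spp1-high and 4 in Arg1-high macrophages. What the depth of the classes of 17 to 120 cells per library could show was not tested.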
